A study of Mus musculus with 3 samples.

Results

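Which cells of the mouse lung held the transcripts of the transforming growth factor-β (TGF-β) ligands and receptors was examined in scRNA-Seq of whole lung from 3 wild-type C57BL/6 mice. The genes were chosen by name, with earlier results of these data known, and number 8 of the 28692 genes listed in the files: the 3 ligands *Tgfb1*, *Tgfb2*, and *Tgfb3*, the 3 receptors *Tgfbr1*, *Tgfbr2*, and *Tgfbr3*, and 2 genes that TGF-β is known to induce, *Tgfbi* and *Smad7*. All 8 were found in each library. The pups were kept in room air (RA) from day 1 to day 14 of life and studied at postnatal day 14 (P14), in the alveolar stage of lung growth, and none carried a transgene or a second treatment. The mice, numbered 2, 3, and 4 as in the labels, thus form 1 group, and the comparisons are between cell types within it. The libraries held 22476491 to 25192427 unique molecular identifiers (UMIs, counted transcript molecules) in 3034 to 3475 cell barcodes, and 7642 of 9644 cells passed the filters. Between 2386 and 2655 cells per mouse were kept, with median depths of 4853 to 7119 UMIs. Pairs of libraries shared 12 barcodes.

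TGF-β ligands are secreted in a latent complex with their own propeptide and a latent TGF-β binding protein, and become active when integrins, thrombospondin, or proteases free them. The active ligand binds the type II receptor TGFBR2, which recruits and phosphorylates the type I receptor TGFBR1, and the complex phosphorylates SMAD2 and SMAD3, which enter the nucleus with SMAD4. TGFBR3, also called betaglycan, is a co-receptor without kinase activity that presents ligand, TGFβ2 in particular, to TGFBR2. SMAD7 is induced by the pathway and in turn blocks the type I receptor, and TGFBI is a secreted matrix protein. In the growing lung, TGF-β signals act in the formation of septa, in myofibroblasts, and in the blood vessels.

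Clusters were named from marker genes, and neither the 8 genes nor other genes of the pathway took part in the clustering. ECs (954 cells), epithelial cells (1305), stromal cells (1538), and immune cells (3010) made up 6807 of the kept cells, and 6741 of these were placed in 21 types. In each class the 6 markers of that class were detected, and *Pecam1*, *Epcam*, *Col1a1*, and *Ptprc* were each highest in ECs, epithelial, stromal, and immune cells, respectively. Types carry the ending "-like" because they rest on markers alone. Some need care. The 96 club-like cells had a median of 740.0 UMIs. The 805 myofibroblast-like cells joined 445 cells led by *Aspn* and *Hhip* and 360 led by *Pdgfra* and *Agt*, and their levels are given for both together. Marked as possible doublets were 12 of the 23 lymphatic-like cells and 28 of the 210 Col13a1-type fibroblasts. The 100 stromal cells that carried *Col14a1*-type fibroblast markers were led by *Dcn* and the cartilage genes *Col2a1* and *Col10a1*, and are called *Dcn*/*Col2a1* stromal cells here. The remaining 835 cells formed 5 clusters without a class name. Levels are given in CPM, the UMIs of a gene relative to the UMIs of all genes, both added up over the cells of a class or type in a mouse and scaled to the same total, as mean ± SD over the 3 mice. Since the cells of a class differ in size and depth and each gene is captured near its 3′ end, levels are compared between cell types and not between genes. CPM carry no further scaling between classes. On such a scale the median log2 fold of the genes tested was 0.53 for ECs, 0.44 for stromal, and 0.22 for immune over epithelial cells. A gap near that size between epithelial and other CPM is therefore no result about a gene.

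*Tgfb1*, at chr7:25687002-25705077 on the plus strand (GRCm38), was highest in immune cells and ECs. It reached 233, 251, and 245 CPM in the immune cells of mice 2, 3, and 4 and 182, 183, and 194 CPM in their ECs. The stromal cells held 41.5, 56.1, and 45.7 CPM, and the epithelial cells 31.3, 28.4, and 34.1 CPM. Immune cells were thus highest in each mouse, ECs were next, and neither overlapped with the stromal or epithelial values. Of all *Tgfb1* UMIs of the kept cells, immune cells held 46.6% ± 12.1 and ECs 25.7% ± 7.05. Among types, interstitial macrophage-like cells led with 383 ± 73.6 CPM, but their range over the mice overlapped with those of basophil or mast-like (319 ± 71.7), alveolar macrophage-like (315 ± 138), and B-cell-like cells (284 ± 15.1). Car4-type capillary ECs, the large-area capillary cells that carry *Car4*, had 272 ± 15.6 CPM, which overlapped with B-cell-like cells. The Aplnr-type capillary, arterial-like, and venous-like ECs followed with 169 ± 2.08, 164 ± 10.00, and 146 ± 4.48 CPM. T-cell-like and NK-like cells, at 103 ± 21.8 and 89.8 ± 11.1 CPM, lay below all 4 of those EC types. Within the B-cell-like cells, those led by *Ms4a1* and *Ly6d* had 317 ± 18.5 CPM and those led by *Fcer2a* and *Ighd* 235 ± 8.21.

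*Tgfb2*, at chr1:186622792-186705989 on the minus strand, was a stromal and alveolar type 1 (AT1) ligand. The stromal cells of mice 2, 3, and 4 held 331, 312, and 387 CPM and the immune cells 0.583, 1.25, and 1.25 CPM. The 15 UMIs in all immune cells compare with an estimate of 19.1 from free RNA, which may be too high, so *Tgfb2* was at or near the background there. ECs held 52.5, 56.97, and 48.7 CPM, and epithelial cells 59.98, 35.5, and 82.1 CPM. The epithelial class was split: AT1-like cells, the flat cells of gas exchange, had 501, 358, and 502 CPM, and AT2-like cells, which make surfactant, had 3.10, 1.64, and 5.76 CPM. AT1-like cells stood first among all types, although their range overlapped with smooth muscle-like cells (411 ± 60.8 CPM), as theirs did with myofibroblast-like (389 ± 26.9) and pericyte-like cells (373 ± 35.3). The Col13a1-type fibroblasts lay apart below them at 188 ± 46.2 CPM. Among ECs, the venous-like cells had 154 ± 7.46 CPM and Aplnr-type capillary cells 22.7 ± 9.09. Sub-clusters within types differed further. The AT1-like cells led by *Ndnf* and *Igfbp2* held 627 ± 93.1 CPM and those led by *Igfbp2* and *Akap5*, with a far greater median depth, 308 ± 68.4. The arterial-like cells led by *Cxcl12* and *Gja5* held 112 ± 29.8 CPM and those led by *Cytl1* and *Vwf*, which carry venous markers as well, 11.9 ± 8.82.

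Because the 2 ligands were highest in different classes, the 250 bases before their start sites are shown, from RefSeq on GRCm38.p6. Capitals mark motifs found on either strand: GC boxes (GGGCGG), the SMAD box (CAGAC), the TATA box (TATAAA), and the E-box CACGTG, none of which overlapped another. The *Tgfb1* window is chr7:25686752-25687001 on the plus strand and that of *Tgfb2* is chr1:186705990-186706239 on the minus strand.
Tgfb1: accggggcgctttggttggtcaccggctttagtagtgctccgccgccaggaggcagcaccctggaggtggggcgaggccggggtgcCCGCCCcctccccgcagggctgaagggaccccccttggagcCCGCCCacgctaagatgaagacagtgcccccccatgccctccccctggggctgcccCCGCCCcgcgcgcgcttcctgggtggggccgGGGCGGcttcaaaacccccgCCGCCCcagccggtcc
Tgfb2: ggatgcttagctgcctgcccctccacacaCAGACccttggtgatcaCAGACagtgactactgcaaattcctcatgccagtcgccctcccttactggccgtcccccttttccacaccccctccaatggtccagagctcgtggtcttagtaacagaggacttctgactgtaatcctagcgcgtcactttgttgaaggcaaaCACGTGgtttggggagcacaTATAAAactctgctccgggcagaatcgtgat
The *Tgfb1* window had a GC content of 75.2% and held 5 GC boxes, with the first of their bases at -164, -123, -67, -36, and -16 from the start, and none of the other motifs. In the *Tgfb2* window the GC content was 53.6%, with SMAD boxes at -221 and -204, CACGTG at -51, and TATAAA at -31. Among 32851 promoter windows of the same length, 32.74% held a GC box, 42.19% a SMAD box, 12.37% TATAAA, and 6.021% CACGTG. The CRE (TGACGTCA, 1.546% of windows) and AP-1 site (TGANTCA, 6.749%) were searched too and are in neither window. Of the 8 genes, 5 had a window, and *Tgfb3*, *Tgfbr3*, and *Smad7* had none.

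*Tgfb3*, at chr12:86056745-86079041 on the minus strand, was likewise held by stromal cells. Stromal cells held 82.9% ± 0.543 of its UMIs and 235, 195, and 225 CPM in mice 2, 3, and 4. Epithelial cells came next with 29.3, 31.00, and 24.6 CPM, apart from ECs at 6.36 ± 3.70 and immune cells at 2.41 ± 0.521 CPM. Of the EC UMIs of *Tgfb3*, 36 lay in 11 cells with 10 or more UMIs of stromal markers, within an EC sub-cluster of low median depth. Myofibroblast-like cells led every type with 363, 309, and 315 CPM, above the *Dcn*/*Col2a1* stromal cells at 244 ± 13.5 CPM. Their name is that of the contractile matrix producers at the septal tips, a position that these data do not show. Smooth muscle-like cells had 94.3 ± 2.69, Col13a1-type fibroblasts 59.9 ± 14.6, and pericyte-like cells 40.4 ± 8.65 CPM. The epithelial *Tgfb3* was in AT2-like cells, with 33.7 ± 3.69 CPM, more than in AT1-like cells (14.2 ± 3.14). *Tgfb3* lies opposite *Ttll5* on the other strand.

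Among the receptors, *Tgfbr1*, at chr4:47353222-47414931 on the plus strand, encodes the type I receptor kinase and had 50.7, 54.2, and 54.7 CPM in the ECs of mice 2, 3, and 4. The values in immune cells (55.6 ± 2.97) and stromal cells (53.4 ± 2.64 CPM) overlapped with these, and only the epithelial cells, at 32.4 ± 1.36, lay apart. Its UMIs were spread over stromal (30.6% ± 2.49), immune (25.2% ± 8.59), epithelial (23.7% ± 4.96), and endothelial cells (16.7% ± 2.08). The interstitial macrophage-like cells had 345, 367, and 345 CPM, apart from alveolar macrophage-like cells at 173, 148, and 84.9 CPM. Dendritic-like cells followed with 75.1 ± 24.6 CPM, and the means of all other types were lower.

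*Tgfbr2*, at chr9:116084293-116175360 on the minus strand, encodes the ligand-binding type II receptor. ECs had 169, 181, and 198 CPM and stromal cells 158, 182, and 163 CPM, which overlapped, and immune (100.3 ± 11.1) and epithelial cells (80.1 ± 4.15 CPM) were below both in each mouse. Col13a1-type fibroblasts had 324, 321, and 354 CPM, above Car4-type capillary ECs with 259, 302, and 266 CPM. The lymphatic-like mean was higher (371 ± 254 CPM) but spanned both. AT1-like cells had 192 ± 16.2 CPM and AT2-like cells 67.1 ± 3.78. Dendritic-like cells were the lowest type, at 18.4 ± 8.81 CPM. In the Aplnr-type capillary cells, those led by *Sema3c* and *Scn7a* held 195 ± 4.79 CPM and those led by *Pcdh17* and *Gpihbp1* 103 ± 11.3.

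*Tgfbr3*, at chr5:107106570-107289629 on the minus strand, encodes betaglycan and was a gene of stromal cells and ECs. Stromal cells held 145, 151, and 159 CPM and ECs 77.4, 87.02, and 69.2 CPM, against 3.62 ± 0.243 CPM in epithelial and 4.01 ± 1.87 in immune cells. Stromal cells held 71.5% ± 1.38 of its UMIs. Myofibroblast-like cells had 212, 227, and 215 CPM. The 23 lymphatic-like cells, with 211 ± 94.97 CPM, overlapped with them. The *Dcn*/*Col2a1* stromal cells had 134 ± 18.4 CPM and Car4-type capillary ECs 111 ± 25.8. Among immune types, T-cell-like cells had 38.3, 26.2, and 39.5 CPM, above interstitial macrophage-like cells at 18.3 ± 7.93. None was counted in 166 dendritic-like or 71 alveolar macrophage-like cells, where 3 UMIs in a mouse amount to 4.81 to 23.5 CPM. Its locus shares its strand with the gene models *Gm43422*, *Gm43423*, and *Gm42900*, so reads there may have been assigned to either or dropped.

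A cell answers TGF-β through both kinases. Both *Tgfbr1* and *Tgfbr2* were detected in 25.97% ± 6.00 of ECs, 28.7% ± 2.10 of epithelial, 31.4% ± 1.57 of stromal, and 6.47% ± 0.529 of immune cells, whose median depths were 7610.5, 16105, 10538, and 3872 UMIs, so the shares are not a ranking of the classes. *Tgfbr2*, with 8145 UMIs in the kept cells against 3052 of *Tgfbr1*, was the receptor more often seen alone, which is no ranking of the receptors. Among AT1-like cells 50 had both, 59 had *Tgfbr2* alone and 0 had *Tgfbr1* alone. In dendritic-like cells the order was the other way, with *Tgfbr1* alone in 43 cells and *Tgfbr2* alone in 12, and likewise in interstitial macrophage-like cells (27 and 9 cells) and, by less, in alveolar macrophage-like cells (14 and 11 cells). Shares of cells with a UMI fell once cells were thinned to equal depth. *Smad7* was seen in 80.6% of ECs and 60.2% of stromal cells, and in 32.2% and 10.9% once every cell was thinned to 1000 UMIs. *Tgfbi* was seen in 59.3% of stromal cells, and in 49.05% when thinned. Without thinning, 0.424% of immune cells had a *Tgfb2* UMI, a share near the background for that gene but not a measure of the background of *Tgfbi*. A cell without a UMI may still hold the transcript.

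*Tgfbi*, at chr13:56609523-56639562 on the plus strand, had the largest stromal share of the 8 genes, with 91.7% ± 2.21 of its UMIs in stromal cells. Mice 2, 3, and 4 had 1210.2, 1146, and 1472 CPM there. In immune cells the same mice had 74.6, 71.7, and 85.95 CPM. The ECs had 36.2 ± 2.59 and epithelial cells 19.2 ± 4.64 CPM. Both moved with the handling of cells: the EC mean was 20.97 CPM with marked doublets removed, and the epithelial mean was 12.6 CPM in that setting, 11.6 with classes taken from the markers of each cell, and 12.6 without a filter on cells. Of the EC UMIs of *Tgfbi*, 195 lay in 11 cells with 10 or more UMIs of stromal markers, within an EC sub-cluster of low median depth. Within the stroma *Tgfbi* separated types sharply. Myofibroblast-like cells had 2295, 2501, and 2525 CPM, *Dcn*/*Col2a1* stromal cells 370.1, 483, and 491 CPM, and Col13a1-type fibroblasts 4.88, 1.08, and 45.1 CPM. Pericyte-like cells had 12.02 ± 6.36 and smooth muscle-like cells 35.6 ± 32.9 CPM. A second, lower group lay in myeloid cells: alveolar macrophage-like (424 ± 187), neutrophil-like (343 ± 41.9), interstitial macrophage-like (261 ± 56.1), and dendritic-like cells (213 ± 50.6 CPM). In B-cell-like cells the 27 UMIs compare with an estimate of 34.6 from free RNA, which may be too high, and so lay near the background.

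*Smad7*, at chr18:75367529-75395935 on the plus strand, was highest in ECs. ECs held 410.4, 430.4, and 377 CPM, stromal cells 106, 117, and 117 CPM, and immune and epithelial cells 65.7 ± 3.56 and 55.7 ± 8.38 CPM. The arterial-like ECs had 735, 787, and 612 CPM, above venous-like ECs with 600.4, 567, and 468 CPM in the ranges over mice, and both lay above the Aplnr-type (322 ± 31.3) and Car4-type capillary ECs (296 ± 13.01). The lymphatic-like cells were low at 47.7 ± 37.9 CPM. Outside the endothelium, T-cell-like cells led with 249, 188, and 194 CPM, and alveolar macrophage-like cells had the lowest level, 6.50 ± 1.37 CPM. In these dissociated lungs fewer cells of a type and less RNA per cell cannot be told apart in the shares of UMIs by class.

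**Figure D1:**
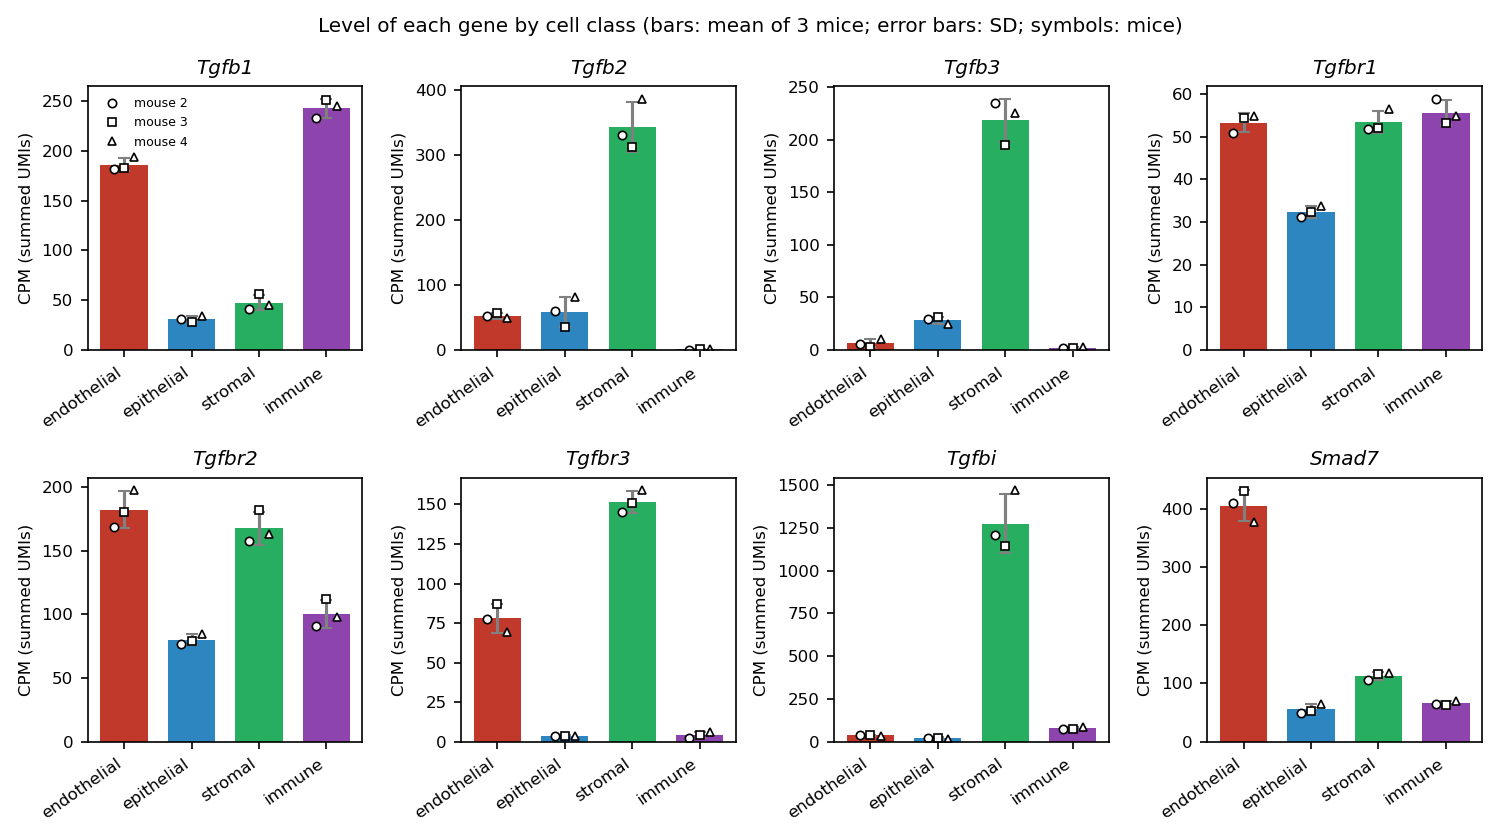
Level of each of the 8 genes in the 4 classes (CPM), with bars for the mean of 3 mice, error bars for the SD, and a symbol for each mouse. Stromal cells sit highest for *Tgfb2*, *Tgfb3*, *Tgfbr3*, and *Tgfbi*, ECs for *Smad7*, and immune cells for *Tgfb1*.

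**Figure D2:**
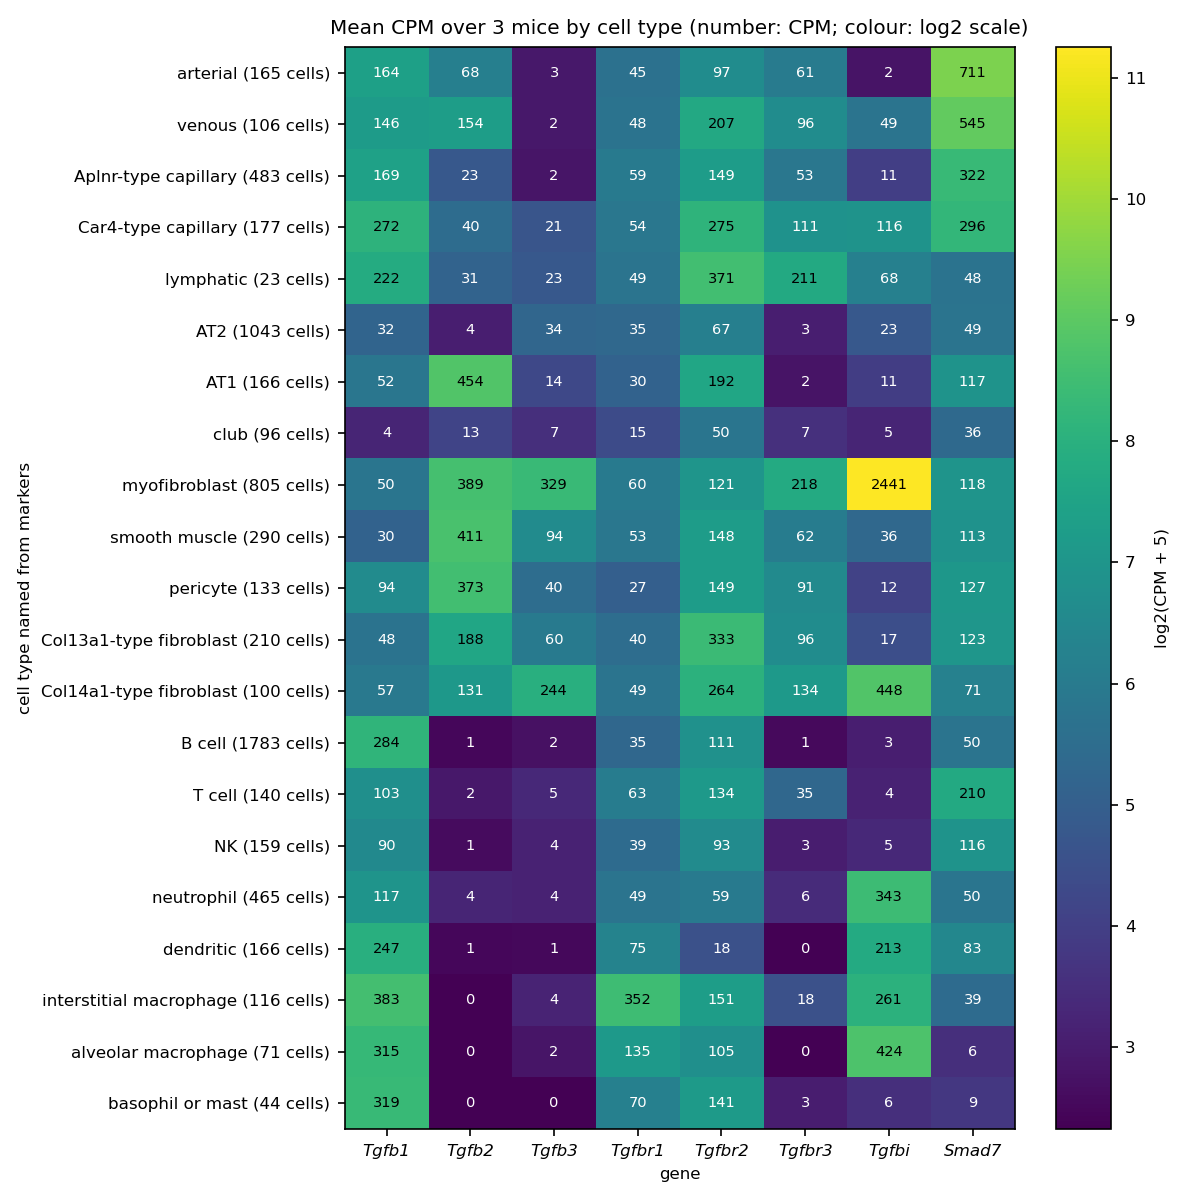
Mean CPM over 3 mice of each gene (columns) in each cell type (rows), printed in each cell with the color on the log2(CPM + 5) scale; the row named Col14a1-type fibroblast holds the *Dcn*/*Col2a1* stromal cells. *Tgfb2* is high in AT1-like cells (454 CPM) and low in AT2-like cells (3.50), and *Tgfbi* is highest in myofibroblast-like cells (2441).

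**Figure D3:**
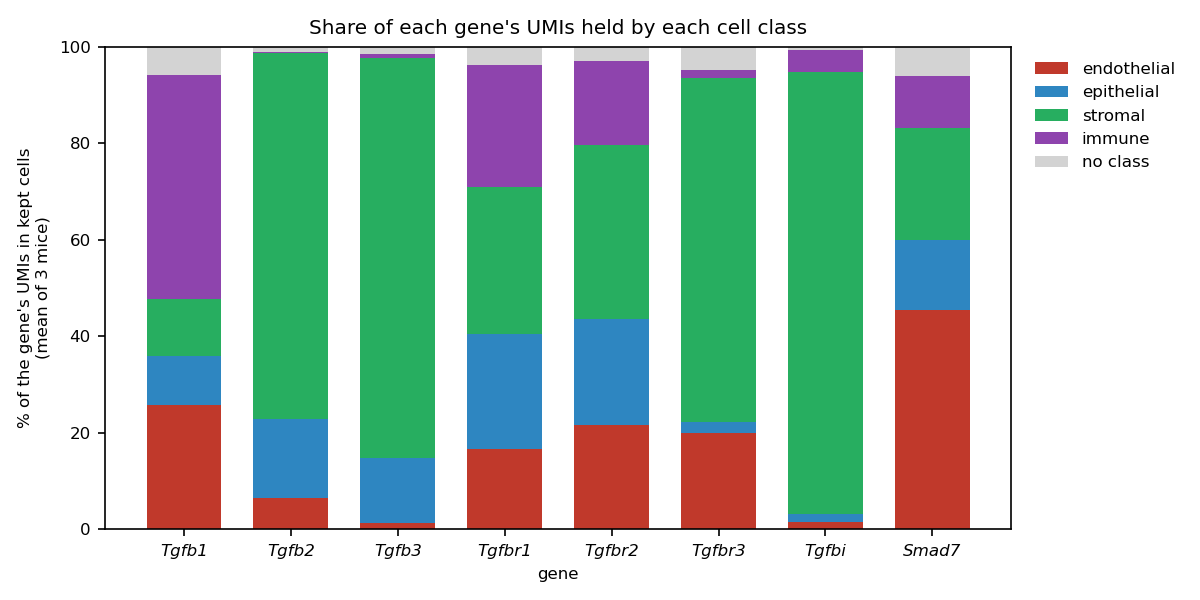
Share (%) of the UMIs of each gene held by each class and by cells without a class, as the mean over 3 mice. Stromal cells held 91.7% of *Tgfbi*, and *Tgfb1* was shared mainly by immune cells (46.6%) and ECs (25.7%).

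Differences between classes were tested on UMIs summed per mouse with edgeR's quasi-likelihood test, with p adjusted (Benjamini-Hochberg) over 14198 genes, and folds are given as log2 ± SE, n = 3 mice. Such p-values rest on the spread between these 3 mice within classes, pooled over all 12 sums of the fit. Sums from the same mouse were treated as independent there. The SE of an edgeR fold was derived from the F statistic of the test, as the absolute fold over the square root of F. It rests on the same pooled spread. Most genes differ between classes, so counts of called genes are given with the share of all genes called, and a share near it is no result about these genes. For the 8 genes, a fold against a level at or near the background of free RNA is given only for a setting that ended or turned the call. Between stromal cells and ECs, where 55.8% of genes were called, 4 of the 8 were higher in stromal cells and 2 lower. The higher genes were *Tgfbi* (5.25 ± 0.18, adjusted p = 2.98e-12), *Tgfb3* (5.13 ± 0.20, adjusted p = 1.28e-11), *Tgfb2* (2.82 ± 0.21), and *Tgfbr3* (1.08 ± 0.11), and the lower were *Tgfb1* (-1.85 ± 0.10, adjusted p = 4.47e-10) and *Smad7* (-1.73 ± 0.09). The kinase receptors did not pass, with *Tgfbr1* at 0.12 ± 0.08 and *Tgfbr2* at -0.01 ± 0.08. Against epithelial cells (67.3% of genes called), 7 of 8 were higher in stromal cells, led by *Tgfbi* (5.68 ± 0.18) and *Tgfbr3* (5.01 ± 0.15, adjusted p = 3.28e-13), and *Tgfb1* did not pass (0.22 ± 0.11), but passed without TMM scaling (0.60), a setting that moved the median of all genes from 0.07 to 0.44. Against immune cells (76.3% called), 6 were higher, among them *Tgfb3* at 6.37 ± 0.22 and *Tgfb2*, which was at the background in immune cells, and 2 lower, *Tgfb1* (-2.49 ± 0.10, adjusted p = 5.73e-12) and *Tgfbr1* (-0.19 ± 0.08, adjusted p = 0.0361). The *Tgfbr1* call was lost in DESeq2 (-0.17), with background RNA subtracted (-0.16), with marked doublets removed (-0.19), without TMM scaling (-0.05), without the filter on low counts (-0.17), without mouse 2 (-0.12), without mouse 3 (-0.21), and without mouse 4 (-0.23). The *Tgfb3* level of immune cells was low, with 1.60 CPM left once background RNA was subtracted. The sizes of the *Tgfb3* folds that involve immune cells, here and below, are therefore uncertain.

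Between ECs and epithelial cells (66.3% of genes called), 6 of 8 were higher in ECs and 2 lower. *Tgfbr3* (3.93 ± 0.16, adjusted p = 9.34e-12), *Smad7* (2.38 ± 0.09), *Tgfb1* (2.08 ± 0.10), and *Tgfbr2* (0.70 ± 0.09) were higher under every setting tried, and *Tgfb3* was lower (-2.55 ± 0.23, adjusted p = 1.25e-07). The other calls were less firm. *Tgfb2* was lower in ECs (-0.69 ± 0.22, adjusted p = 0.0129), but not without TMM scaling (-0.20), without mouse 2 (-0.66), and without mouse 4 (-0.34). The AT2-like cells, 1043 of the 1305 epithelial cells, held less *Tgfb2* (1.64 to 5.76 CPM) than the ECs of any mouse, so this contrast does not describe most epithelial cells. *Tgfbr1* was higher (0.23 ± 0.08, adjusted p = 0.0245), but not in DESeq2 (0.17), with the stricter cell filter (0.11), without mouse 2 (0.26), without mouse 3 (0.17), and without mouse 4 (0.23). *Tgfbi* was higher (0.42 ± 0.17, adjusted p = 0.0444), but not in DESeq2 (0.36), with background RNA subtracted (0.42), with the stricter cell filter (-0.12), with marked doublets removed (0.24), with the mouse as a block (0.43), without mouse 3 (0.36), and without mouse 4 (0.27). Against immune cells (69.5% called), ECs were higher for 5 genes, *Tgfb2* (at the background in immune cells), *Tgfbr3* (3.98 ± 0.17), *Smad7* (2.38 ± 0.10, adjusted p = 9.62e-12), *Tgfb3* (1.24 ± 0.39, adjusted p = 0.0109), and *Tgfbr2* (0.61 ± 0.09), and lower for 3, *Tgfbi* (-1.35 ± 0.17), *Tgfb1* (-0.64 ± 0.09), and *Tgfbr1* (-0.31 ± 0.08, adjusted p = 0.00391). *Tgfb3* lost its call with the stricter cell filter (0.82), with classes taken from the markers of each cell (0.85), with marked doublets removed (0.47), and without mouse 4 (0.83), and *Tgfbr1* without TMM scaling (-0.06) and without mouse 2 (-0.22). The 954 ECs of these contrasts include the 11 cells with stromal markers that held 195 *Tgfbi* and 36 *Tgfb3* UMIs. The EC levels and folds of these 2 genes therefore rest in large part on those 11 cells. Immune cells exceeded epithelial cells (75.5% called) for 3 genes, *Tgfb1* (2.71 ± 0.10), *Tgfbi* (1.77 ± 0.16), and *Tgfbr1* (0.54 ± 0.08), and were below them for *Tgfb2* (at the background in immune cells) and *Tgfb3* (-3.78 ± 0.26). *Smad7*, *Tgfbr3*, and *Tgfbr2* did not pass there, although *Tgfbr2* did without TMM scaling (0.33).

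Within lineages 11 pairs of types were tested in the same way over 13395 genes. The p-values of these pairs rest on a spread pooled over 60 sums of 21 types from the 3 mice, with sums from the same mouse treated as independent. AT1-like and AT2-like cells (31.3% of genes called) were compared first. *Tgfb2* was higher in AT1-like cells by 6.65 ± 0.23, adjusted p = 1.57e-28 on the log2 scale, and so were *Tgfbr2* (1.26 ± 0.15) and *Smad7* (1.02 ± 0.13). *Tgfb3* was higher in AT2-like cells (-1.56 ± 0.28, adjusted p = 8.88e-06). The remaining calls depended on the setting: *Tgfb1* (0.50 ± 0.18) was not called with marked doublets removed (0.39) and without mouse 4 (0.36), and *Tgfbr1* (-0.49 ± 0.18) was not called without TMM scaling (-0.22), without the filter on low counts (-0.47), without mouse 2 (-0.30), without mouse 3 (-0.54), and without mouse 4 (-0.56). *Tgfbr3* (-0.87 ± 0.61) and *Tgfbi* (-1.30 ± 0.53) did not pass, and *Tgfbi* passed without the filter on low counts (-1.29).

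Myofibroblast-like cells exceeded Col13a1-type fibroblasts (27.9% of genes called) for 5 of the 8. These were *Tgfbi* (adjusted p = 3.26e-20), *Tgfb3* (2.34 ± 0.18), *Tgfbr3* (1.06 ± 0.16), *Tgfb2* (0.94 ± 0.17), and *Tgfbr1* (0.49 ± 0.18, adjusted p = 0.036). *Tgfbi* in Col13a1-type fibroblasts was low and uneven, with 4.88, 1.08, and 45.1 CPM in mice 2, 3, and 4. Its folds against that type are therefore not read. *Tgfbr2*, the highest stromal level of which was in Col13a1-type fibroblasts, was lower in myofibroblast-like cells (-1.56 ± 0.15, adjusted p = 3.68e-13). The *Tgfbr1* call was lost without the filter on low counts (0.52), without mouse 3 (0.43), and without mouse 4 (0.45). *Dcn*/*Col2a1* stromal cells exceeded the Col13a1-type fibroblasts (20% called) for *Tgfbi* and *Tgfb3* (2.06 ± 0.21) and were lower for *Smad7* (-0.76 ± 0.17, adjusted p = 0.000537). This count of 3 became 5 with the mouse as a block, when *Tgfb2* (-0.52) and *Tgfbr3* (0.49) passed. *Tgfb2* also passed without the filter on low counts (-0.52), and *Tgfbr3* in DESeq2 (0.56). Pericyte-like cells, which wrap capillaries, were below myofibroblast-like cells (21.2% called) for *Tgfbi*, *Tgfb3* (-3.00 ± 0.26), *Tgfbr3* (-1.31 ± 0.21), and *Tgfbr1* (-1.15 ± 0.28). They were above them for *Tgfb1* (0.86 ± 0.23, adjusted p = 0.00367), a call lost without mouse 2 (0.77). The *Tgfbi* level of pericyte-like cells was low (12.02 ± 6.36 CPM), so that fold is not read. Smooth muscle-like cells were below myofibroblast-like cells (26.3% called) for *Tgfbi* (-6.03 ± 0.38), *Tgfbr3* (-1.72 ± 0.16), *Tgfb3* (-1.70 ± 0.15), and *Tgfb1* (-0.63 ± 0.19, adjusted p = 0.0072). *Tgfb1* was not called without mouse 4 (-0.61). *Tgfbi* in smooth muscle-like cells was low and uneven, with 26.2, 72.3, and 8.46 CPM in mice 2, 3, and 4. The size of its fold is therefore uncertain. *Tgfbr2* was higher in smooth muscle-like cells (0.39 ± 0.15, adjusted p = 0.0423), but not without TMM scaling (0.29), without the filter on low counts (0.36), without mouse 2 (0.38), without mouse 3 (0.38), and without mouse 4 (0.42). *Tgfb2* did not pass in either of these contrasts, with folds of -0.11 ± 0.19 and 0.19 ± 0.15.

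Among ECs, Car4-type against Aplnr-type capillary cells (9.38% of genes called) gave 5 higher genes. *Tgfbr2* (0.84 ± 0.16, adjusted p = 6.19e-05), *Tgfbr3* (1.02 ± 0.19), and *Tgfb1* (0.66 ± 0.14) were higher under every setting tried. *Tgfb3* (3.18 ± 0.52) and *Tgfbi* (3.36 ± 0.46) were not: the *Tgfb3* fold turned with marked doublets removed (-1.16) and without the clusters of low depth (-0.44), and the *Tgfbi* fold with marked doublets removed (-1.62) and without the clusters of low depth (-0.40). The Car4-type cells comprised 95 cells led by *Car4* and *Kdr*, with 7.53 ± 6.62 CPM of *Tgfbi*, and 82 cells led by *Kdr* and *Apln*. Those 82 had a median of 927 UMIs and 352 ± 83.9 CPM of *Tgfbi*. Of their 196 *Tgfbi* UMIs, 195 lay in the 11 cells that had 10 or more UMIs of stromal markers, and all 36 *Tgfb3* UMIs did. The same 11 cells held 132 of the 157 *Smad7* and 89 of the 114 *Tgfb1* UMIs, so the low median depth does not describe them. Arterial-like against Aplnr-type cells (14.8% called) were higher for *Tgfb2* (1.49 ± 0.29) and *Smad7* (1.15 ± 0.12, adjusted p = 1.15e-11) and lower for *Tgfbr2* (-0.63 ± 0.18, adjusted p = 0.0105), a call lost without mouse 2 (-0.36) and without mouse 4 (-0.65). *Tgfb1* was -0.02 ± 0.16 and did not pass. The *Tgfb2* call does not describe the arterial-like cells led by *Cytl1* and *Vwf*. Their mean level, given above, was below that of the Aplnr-type cells (22.7 ± 9.09 CPM). *Tgfbi*, at the background in arterial-like cells, passed with marked doublets removed and without the filter on low counts alone.

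Among lymphocytes, T-cell-like cells against B-cell-like cells (22.5% of genes called) were lower for *Tgfb1* (-1.67 ± 0.18, adjusted p = 7.4e-11) and higher for *Smad7* (1.76 ± 0.16, adjusted p = 1.24e-13) and *Tgfbr3*, which B-cell-like cells held in 8 UMIs, near the 5.29 of the background. *Tgfbr1* did not pass (0.50 ± 0.23), but passed in DESeq2 (0.74), with marked doublets removed (0.67), and without TMM scaling (0.78). NK-like cells (25% called) were also lower for *Tgfb1* (-1.90 ± 0.18) and higher for *Smad7* (0.97 ± 0.17), and *Tgfbr3* passed in DESeq2 alone. Neutrophil-like cells (47.5% called) exceeded B-cell-like cells, which were at the background, for *Tgfbi* and had less *Tgfb1* (-0.62 ± 0.17). Their other higher calls were *Tgfbr1* (1.2 ± 0.23), *Smad7* (0.70 ± 0.21), *Tgfb2*, and *Tgfbr3*. *Tgfb2* had 5 UMIs in neutrophil-like and 5 in B-cell-like cells, where free RNA would bring 2.98 and 11.2. The calls were lost or turned without mouse 3 (0.82) for *Tgfbr1*, with marked doublets removed (0.59), without TMM scaling (0.06), and without mouse 3 (0.27) for *Smad7*, without TMM scaling (2.59) and without mouse 4 (1.35) for *Tgfb2*, and with marked doublets removed (-3.21) and without mouse 4 (-3.36) for *Tgfbr3*, which had UMIs in neutrophil-like cells of mouse 4 alone. *Tgfb3* passed in DESeq2 (2.27) and *Tgfbr2* without TMM scaling (-0.91) alone. The medians of all genes were -0.20 (0 without TMM scaling), -0.21 (0 without TMM scaling), and -0.19 (-0.82 without TMM scaling) in these contrasts. Interstitial against alveolar macrophage-like cells (13.6% called) were higher for *Tgfbr1* (1.12 ± 0.22, adjusted p = 0.000151), a call that held without each mouse. *Smad7* was higher (2.29 ± 0.66, adjusted p = 0.0316), but the call was lost in DESeq2 (2.31), without the filter on low counts (2.30), without mouse 2 (2.39), without mouse 3 (1.90), and without mouse 4 (2.57). *Tgfbr3* had 7 UMIs in interstitial (18.8 CPM over the group) and 0 in alveolar macrophage-like cells. There, 3 UMIs over the group would be 6.30 CPM, 2.98-fold below the interstitial level. The 7 UMIs carry a counting error too, so this ratio is no lower limit of the fold. The *Tgfbr3* call was lost with the mouse as a block (7.02), without mouse 2 (7.29), without mouse 3 (6.84), and without mouse 4 (6.90). *Tgfbi* (-0.98 ± 0.42) and *Tgfb1* (0.01 ± 0.21) did not pass, and *Tgfbi* passed without the filter on low counts (-0.97) and without mouse 4 (-1.36). *Tgfb2* had no UMI in either.

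**Figure D4:**
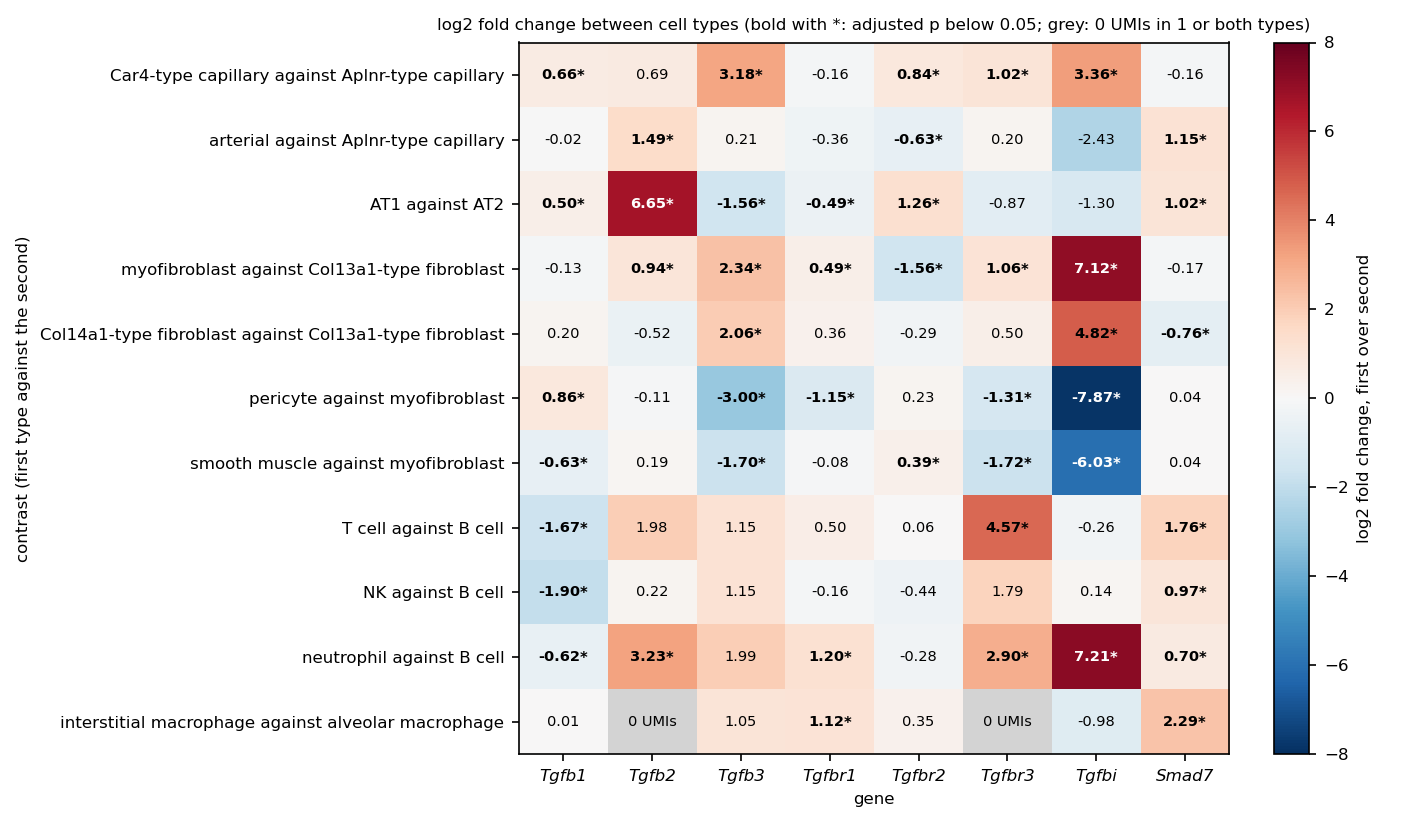
Log2 fold (number and color) of the 8 genes (columns) between the first and the second of each of 11 pairs of types (rows; n = 3 mice), bold with an asterisk where the adjusted p was below 0.05 and grey where a side had 0 UMIs. The folds of *Tgfb2*, *Tgfbr3*, and *Tgfbi* over B-cell-like cells, and of *Tgfbi* in arterial-like cells, involve levels near the background and are not read. Those of *Tgfbi* against Col13a1-type fibroblasts and in pericyte-like cells rest on low levels and are not read either. The *Tgfbi* fold in smooth muscle-like cells rests on a low, uneven level, so its size is uncertain. *Tgfb2* in AT1-like against AT2-like cells is 6.65.

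**Figure D5:**
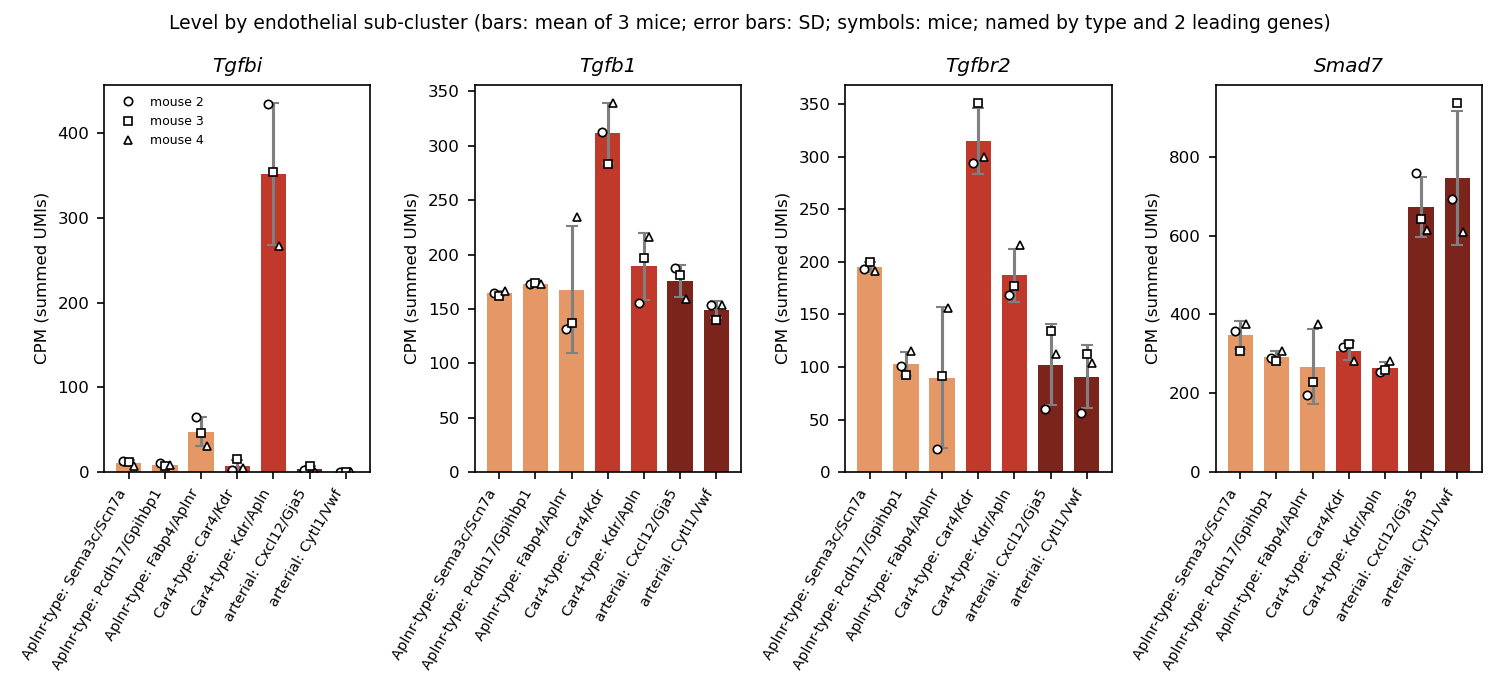
CPM of *Tgfbi*, *Tgfb1*, *Tgfbr2*, and *Smad7* in 7 sub-clusters of the ECs, as bars (mean of 3 mice), error bars (SD), and a symbol for each mouse. *Smad7* is higher in both arterial-like sub-clusters than in the capillary ones, and *Tgfbi* in the shallow sub-cluster led by *Kdr* and *Apln* (352 ± 83.9 CPM).

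The 40 other genes of the pathway were grouped in 5 lists, whose counts are read against the share of all genes called in a contrast. Their levels are not given here, so a large fold may rest on few UMIs on its lower side. Between stromal cells and ECs (55.8% of genes called), of the genes of latency and activation 5 of 10 were higher and 1 lower, led by *Itgb8* (5.99), *Ltbp2* (5.36), *Thbs1* (4.73), which encode an integrin chain, a latent TGF-β binding protein, and thrombospondin, with *Lrrc32* (-0.89), an anchor of latent TGF-β, lower. Of the co-receptors and accessory receptors 0 of 6 were higher and 4 lower, and the list had a median of -1.34 against 0.06 for all genes. The endothelial ones were *Acvrl1* (-3.62), *Nrp1* (-1.80), *Eng* (-1.49), of which *Acvrl1* is a type I receptor of endothelium and *Eng* its co-receptor. Among SMADs *Smad3* (3.26) alone was called. Of the inhibitors 3 of 10 were higher and 5 lower, with *Dcn* (8.43), *Pmepa1* (2.49) higher and *Smad6* (-2.72), *Fkbp1a* (-1.56) lower. Of the target genes 7 of 10 were higher and 1 lower, led by *Postn* (4.25), *Ctgf* (3.25), *Fn1* (3.02), with *Cdkn2b* (-4.92) lower.

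Between ECs and epithelial cells (66.3% of genes called), all 6 co-receptors were higher in ECs, led by *Acvrl1* (7.43), *Eng* (6.66), *Cd109* (4.14), and the latency list was split, with *Lrrc32* (6.22), *Ltbp4* (5.54), *Ltbp1* (4.50) higher and *Itgb6* (-7.98), *Ltbp3* (-2.16), *Thbs1* (-1.47) lower. *Thbs1* turned with classes taken from the markers of each cell (0.36). *Itgb6* forms the integrin that frees TGF-β at epithelial surfaces. It also led the latency list between AT1-like and AT2-like cells (31.3% called), where 4 of 10 were higher and 0 lower, with *Itgb6* (5.6), *Thbs1* (1.53), *Ltbp3* (1.04). The *Thbs1* call was lost in DESeq2 (1.49) and without mouse 2 (1.37). Of the target genes 3 of 10 were higher and 1 lower, with *Cdkn2b* (5.34), *Ctgf* (5.33), *Snai1* (3.38) higher and *Bhlhe40* (-1.56) lower. Between immune and epithelial cells (75.5% called), of the inhibitors 2 of 10 were higher and 8 lower. Of the latency genes 2 of 10 were higher in immune cells, *Thbs1* (3.90) and *Lrrc32* (2.43), and 6 were lower. Myofibroblast-like cells were above Col13a1-type fibroblasts for *Ltbp2* (2.85), *Thbs1* (2.34), *Itgav* (1.35) and *Postn* (6.90) and below them for *Ltbp1* (-2.06) and *Fn1* (-4.22). Pericyte-like cells were below myofibroblast-like cells for *Ltbp1* (-7.56), *Itgb8* (-7.54), *Thbs1* (-5.55) and above them for *Lrrc32* (4.47). *Itgb8* was not called in DESeq2 (-5.05 ± 2.95), so the size of its fold is uncertain. Between Car4-type and Aplnr-type capillary cells (9.38% called) 7 of 10 were higher and 0 lower among the target genes, *Cdkn2b* (3.84) and *Postn* (3.17) among them. With marked doublets removed 4 higher and 1 lower were called and *Postn* (1.83) was not. Without the shallow clusters 4 higher and 0 lower were called and *Postn* turned (-2.59), and 4 were called without mouse 4. Against immune cells, stromal cells (76.3% called) were higher for 6 of 6 co-receptors and ECs (69.5% called) for 6, and against epithelial cells (67.3% called) 8 of 10 latency genes were higher in stromal cells.

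Other genes shared the patterns of the 8 across 20 types, by Pearson's r of log2(CPM + 5) over the means of types, given as a description since the types share libraries and depth. *Tgfb2* was most like *Ctgf* (0.96), *Hspg2* (0.96), *Cyr61* (0.96), of which *Ctgf* and *Cyr61* encode matricellular proteins and *Hspg2* perlecan. *Tgfb3* was most like *Col6a1* (0.95), *Col16a1* (0.95), *Col6a2* (0.95), which encode collagens, *Col6a1* being among the stromal markers. For *Tgfbr3* the genes were *Zfp30* (0.93), *Sardh* (0.92), *Mfap2* (0.92), and for *Smad7* *Gm15800* (0.90), *Cramp1l* (0.90), *Efcab14* (0.89). *Tgfb1* was most like *Slc25a28* (0.88), *Abi1* (0.87), *Crlf2* (0.87), and *Tgfbr1* like *Ms4a7* (0.86), *Dnase1l1* (0.85), *Ctsa* (0.84). The highest values for *Tgfbr2* (*Rbsn* (0.81), *Tmem106b* (0.80), *Atg4b* (0.77)) and *Tgfbi* (*Atp6ap2* (0.74), *Creb5* (0.72), *Metrnl* (0.71)) were lower. All come from the 13395 genes tested.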

How the data were processed

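Whole-lung cell suspensions of the 3 mice were loaded on a 10x Genomics chip and sequenced as 3′ v3 libraries, 1 per mouse. The authors deposited, per library, a matrix of UMI counts per gene and cell barcode, made with Cell Ranger 3.0.2 on mm10 according to the submitters' processing notes; the annotation release is not given in the sources used here. The 9644 deposited barcodes are more than the cells named in the series description, which gives no filter. Of these, 7642 had 200 or more genes and no more than 20% mitochondrial UMIs and were used. They were normalized with SCTransform and clustered in Seurat 5.3.0 (R 4.3.3) with 3000 variable genes less the 28 that belong to the pathway, 30 components, and a resolution of 0.8, and ECs were clustered again with 20 components. Clusters were named from marker lists, with a mean log2 fold of 1 or more and 3 detected markers; the way lists were scored was set after the clusters had been seen. Doublets were scored with Scrublet (scanpy 1.11.5), whose own threshold marked under 0.5% of each library, so the highest scores, at 0.8% per 1000 cells, were marked (200 of the kept cells) and removed as an alternative only. Free RNA was estimated from markers of other classes in B-cell-like cells. These markers included *Pecam1*, which had 164 CPM in immune cells, against 7.23 for *Cdh5* and 7.67 for *Cldn5*. Part of the *Pecam1* may be the cells' own, so the amounts given for free RNA, and those subtracted, may be too high.

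Raw counts of the cells of a class (12 sums) or of a type with 10 or more cells were added up within each mouse and tested in edgeR 4.0.16 (TMM, filterByExpr, quasi-likelihood, Benjamini-Hochberg over all genes tested, threshold 0.05), with all classes or all types in 1 fit. DESeq2 1.42.0 was an alternative. Sums from a mouse come from the same animal: their deviations correlated with r of 0.0963 to 0.411 over 18 pairs and 7499 genes, and the fit with the mouse as a block is reported where it changed a call. The libraries differed by more than sampling noise, with a chi-square per degree of freedom of 9.12 to 38.1. Where the depth of a share matters, cells were thinned to 1000 or 2000 UMIs. UMI intervals and floors (3 UMIs) cover counting error only. Positions are from GENCODE M21 (GRCm38), and promoter windows from RefSeq (GRCm38.p6).

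The 8 genes, the pathway lists, and the markers were chosen with earlier results of these data known. The text names the 8 genes in full and, of the pathway lists, up to 3 called genes of largest fold in each direction, except that 1 such gene and 1 cluster without a class are not reported here. Sub-clusters, the setting without shallow clusters, the promoter windows shown, and their motifs were chosen after values had been seen. The edgeR and DESeq2 steps alone were tried on simulated sums with known changes. This was done for ECs against epithelial cells and for Car4-type against Aplnr-type capillary cells, each pair in its own fit. The simulated sums carried no correlation within a mouse, so the trial does not cover the joint fits used here.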

Additional observations from a re-analysis of the deposited data

Results flagged for a closer look

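Cells left without a class were not part of any comparison, and the value given here lay above that of every class. In the cluster led by the platelet genes *Pf4* and *Clec1b* (31 cells, median 711 UMIs) *Tgfb1* reached 783 CPM (SD 320.2), with 473, 763, and 1113 CPM in mice 2, 3, and 4, against 251.5 CPM in the highest class of any mouse. This rests on 51 UMIs. No explanation of this value was tested.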

How the results depend on the processing

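Each gene kept the class in which its mean was highest under all 11 alternatives for levels, except *Tgfbr1* under 1. With a stricter filter (500 genes, 10% mitochondrial UMIs), immune *Tgfb1* moved to 226 CPM and immune *Tgfbr1* to 60.5, and *Tgfbr1* to 60.3 without a filter on cells. That filter also turned folds of ECs over epithelial cells for *Tgfbi* (-0.12) and *Dcn* (3.88) and of immune over epithelial cells for *Dcn* (2.44). *Tgif1* (ECs over epithelial cells) became 0.16 without TMM scaling, and *Thbs1* 0.36 with classes from the markers of each cell. In Car4-type over Aplnr-type cells, *Tgfb3* became -1.16 and *Tgfbi* -1.62 without doublets, and *Tgfb3* -0.44, *Tgfbi* -0.40, *Ltbp2* -2.20, and *Postn* -2.59 without shallow clusters, a setting chosen after seeing the data; 3 of the 8 genes were called in each. *Tgfbr3* in neutrophil-like over B-cell-like cells became -3.21 without doublets and -3.36 without mouse 4, and 4.57 without mouse 3. The replicate block (the mouse) raised the count in *Dcn*/*Col2a1* over Col13a1-type cells to 5, ended the calls of *Tgfbi* in ECs over epithelial cells and of *Tgfbr3* in interstitial over alveolar macrophage-like cells, and changed no other call of the 8 genes. The cause of these changes was not tested.

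With a mouse left out, 2715 to 3697 genes were called between AT1-like and AT2-like cells, 664 to 907 between the capillary types, 1260 to 1607 for arterial-like cells, 1835 to 2430 for T-cell-like cells, and 990 to 1254 for macrophages, in fits with fewer samples. Of the 8 genes, 5 to 6 were called in ECs over epithelial cells, 1 to 2 in macrophages, and 3 to 4 in smooth muscle-like over myofibroblast-like cells. Without TMM scaling the median fold of all genes moved from 0.05 to 0.53 in ECs over epithelial, from 0.07 to 0.44 in stromal over epithelial, and from -0.19 to -0.82 in neutrophil-like over B-cell-like cells, which sets the scale against which folds near 0 are read. Shares of cells with a UMI all fell on thinning, and genes of few UMIs cannot be told from the background in immune cells.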

Other observations

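Of the other clusters without a class, 3 are described. The 460 cells led by *Hpgd* and *Sox7* had a median of 842 UMIs and 0.569% mitochondrial UMIs. *Smad7* was 419.9 ± 11.3 CPM there, with 410.0, 432, and 417 CPM in mice 2, 3, and 4, in the range of ECs (406 ± 26.8), and *Tgfb1* was 62.5 ± 18.8 CPM, below ECs (186 ± 6.62).

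The 174 cells led by the neuronal genes *Uchl1* and *Pcsk1n*, with a median of 776 UMIs, held 82 *Tgfbi* UMIs and 26 of *Tgfb3*, at 456, 96.3, and 363 CPM of *Tgfbi* in mice 2, 3, and 4, a spread wider than in any class. In the 143 dividing cells led by *Top2a* and *Mki67*, of which 29 were marked as doublets, *Tgfb1* was 150.1 ± 11.3 and *Smad7* 137 ± 9.86 CPM.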
